A study of Mus musculus with 26 samples.

Results

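The genes described here are 10 mouse genes for enzymes of triglyceride synthesis: Gpam, Gpat3, Gpat4, Agpat2, Agpat3, Lpin1, Lpin2, Lpin3, Dgat1 and Dgat2. They were taken by name, with Ensembl identifiers matched to mouse symbols, from a table of 50686 genes. All 10 were found and all 10 passed the filter on low counts, which left 17286 genes to be tested.

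In the glycerol phosphate pathway, a fatty acyl group is first joined to glycerol 3-phosphate by a glycerol phosphate acyltransferase (GPAT), and an acylglycerol phosphate acyltransferase (AGPAT) adds the next to give phosphatidic acid. A lipin removes the phosphate to leave diacylglycerol, and a diacylglycerol acyltransferase (DGAT) adds the last acyl group to make triglyceride. Brown adipose tissue (BAT) stores triglyceride in many small droplets and burns fatty acids for heat, and each step of the pathway can be run by several enzymes.

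Total RNA of BAT, labelled as supraclavicular, was sequenced from 26 male C57BL/6J mice in 4 groups. Fat-specific Afadin knockout (FAKO) mice carried floxed alleles of the Afadin gene, Afdn (also named Mllt4), and a Cre driven by the adiponectin promoter, and the controls were littermates. This Cre is active in white as well as brown adipocytes and not in the other cells of the tissue. All mice were 12 to 16 weeks old when they were placed at thermoneutrality, where they were kept for 14 to 18 days. This was 29 °C in the study's methods and 30 °C in the labels. There were 7 control and 7 FAKO mice that stayed at thermoneutrality (labelled WT30 and KO30), and 5 control and 7 FAKO mice that were then moved to 5 °C for 6 h (WT5 and KO5). The libraries held between 12705969 and 25732258 counts.

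The targeted gene was looked at first. Read counts were normalised to CPM (counts scaled to library totals that were adjusted by TMM normalisation factors). Those of Afdn ran from 151 over a median of 200.03 to 214 in control mice at 29 °C. In FAKO mice at 29 °C they ran from 154 over 204 to 231. After cold they were 67.9 to 79.2 in control mice and 53.3 to 65.3 in FAKO mice. Afdn mRNA was thus not lower in the mice labelled FAKO at 29 °C, where the log2 fold change was -0.01 ± 0.08 (SE, adjusted p = 0.99, edgeR). At 5 °C it was -0.33 ± 0.09 with groups that did not overlap, which missed the threshold after adjustment over all genes (adjusted p = 0.12, edgeR). "FAKO" is therefore used below as the name of the labelled group, and Afdn mRNA does not check the deletion at 29 °C. At the protein level, the study reported a smaller rise of Afadin with cold in BAT of FAKO mice. It also showed BAT Afadin protein at thermoneutrality and Mllt4 mRNA by RT-qPCR in both genotypes. Its text gives no values of these by genotype.

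The other checks of the libraries were these. Ucp1, the uncoupling protein of brown adipocytes, rose by 4.02 ± 0.16 in control and 4.34 ± 0.16 in FAKO mice on the log2 scale (SE, edgeR). By RT-qPCR the study reported a weaker cold induction of Ucp1 mRNA in FAKO mice, whereas the rise here was no smaller in them. The 8 brown adipocyte markers, Ucp1 among them, summed to 7144 to 9025 CPM at 29 °C and 25399 to 32302 CPM at 5 °C. Ucp1 alone went from a mean of 985 to 16005 CPM in control and from 811 to 16429 CPM in FAKO mice. Gene by gene the list split, with 3 past the threshold upwards and 2 downwards in control mice, and 3 and 3 in FAKO mice. The median log2 fold change of the list was 0.01 in control and 0.12 in FAKO mice. Skeletal muscle markers, 8 genes, summed to between 4.89 and 5633 CPM at 29 °C and between 1.07 and 8027 CPM at 5 °C, a spread found between mice of the same group. Red blood cell markers passed the threshold upwards in cold in 5 of 5 genes in FAKO mice and in 0 of 5 in control mice. Over all genes tested, 33.7% and 31.6% passed upwards. The sums of the red blood cell markers ran from 289 to 609 CPM at 29 °C and 517 to 1497 CPM at 5 °C in FAKO mice. In control mice they ran from 233 to 1120 CPM at 29 °C and 417 to 684 CPM at 5 °C. Neutrophil markers summed to 0.582 to 3.85 CPM at 29 °C and 3.13 to 44.1 CPM at 5 °C, and 2 of the 6 (Ly6g and Mpo) had at most 3 counts in any mouse. Macrophage markers summed to 118 to 190.2 CPM at 29 °C and 144 to 239 CPM at 5 °C, lymphocyte markers to 24.1 to 61.5 and 13.5 to 70.3 CPM, and endothelial markers to 478 to 713 and 641 to 852 CPM. These sums are led by the most abundant genes. With cold, 3 of 6 endothelial markers passed the threshold upwards and 3 downwards in each genotype. Of 6 macrophage markers, 1 passed upwards and 2 downwards in control mice, and 4 and 2 in FAKO mice. Of 6 lymphocyte markers, 0 and 3 did so in control mice, and 0 and 1 in FAKO mice. Of 4 tested neutrophil markers, 3 passed upwards and 1 downwards in each genotype. The part of these cells in the results below was not tested, and in bulk tissue fewer cells of a type and less RNA per cell cannot be told apart. Control mouse 7 at 29 °C held the highest sums of its group for skeletal muscle markers, 5633 CPM, and red blood cell markers, 1120 CPM. It also stood apart with 14.3% of its counts from mitochondrial genes, against 33.9% to 40.5% in the other control mice at 29 °C. In FAKO mice at 29 °C this share ran from 26.2% to 38.5%, and most of them lay below those other control mice. After cold the share ran from 26.1% to 33.8% in control mice, below those other control mice at 29 °C, and from 19.2% to 39.3% in FAKO mice. Much of it was mt-Rnr2, a mitochondrial ribosomal RNA. That gene made up 8.10% of counts in control mouse 7 and 22.7% to 28.5% in the other control mice at 29 °C. The part of these imbalances in the comparisons of the genotypes and of the temperatures was not tested.

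After 6 h of cold the 10 genes did not move as 1 group. In control mice, 7 rose, 2 fell and Agpat2 did not pass the test, and in FAKO mice 8 rose and 2 fell. Dgat2, by far the most abundant of the 10 at 29 °C, fell to 0.119 of its level in control and 0.143 in FAKO mice, and Dgat1, which catalyses the same reaction, rose 3.70-fold and 3.98-fold. Lpin1, the main lipin mRNA, also fell. At neither temperature did any of the 10 pass the threshold between FAKO and control mice.

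Cold moved much of the transcriptome, so these counts are read against the background of all genes tested. In control mice 31.6% of all genes passed the threshold upwards and 33.4% downwards, against 7 and 2 of the 10 genes. In FAKO mice 33.7% passed upwards and 34.9% downwards, against 8 and 2 of 10. The split of all genes in FAKO mice depended on the scaling, with 5825 genes up and 6035 down with TMM factors, 3223 and 8384 with library size alone, and 4694 and 7369 with upper-quartile factors. A change of at least 2-fold (log2 fold change of 1) that also passed the threshold was seen in 24.9% of all genes in control mice and 25% in FAKO mice, and in 5 of the 10 genes in each. The median log2 fold change of the 10 genes was 0.83 in control and 0.97 in FAKO mice, beside -0.01 and -0.03 over all genes tested. The CPM values of the cold and thermoneutral mice did not overlap for 8 of the 10 genes in control mice and for 8 of 10 in FAKO mice, where 46.4% and 40.4% of all genes did not overlap.

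**Figure D1:**
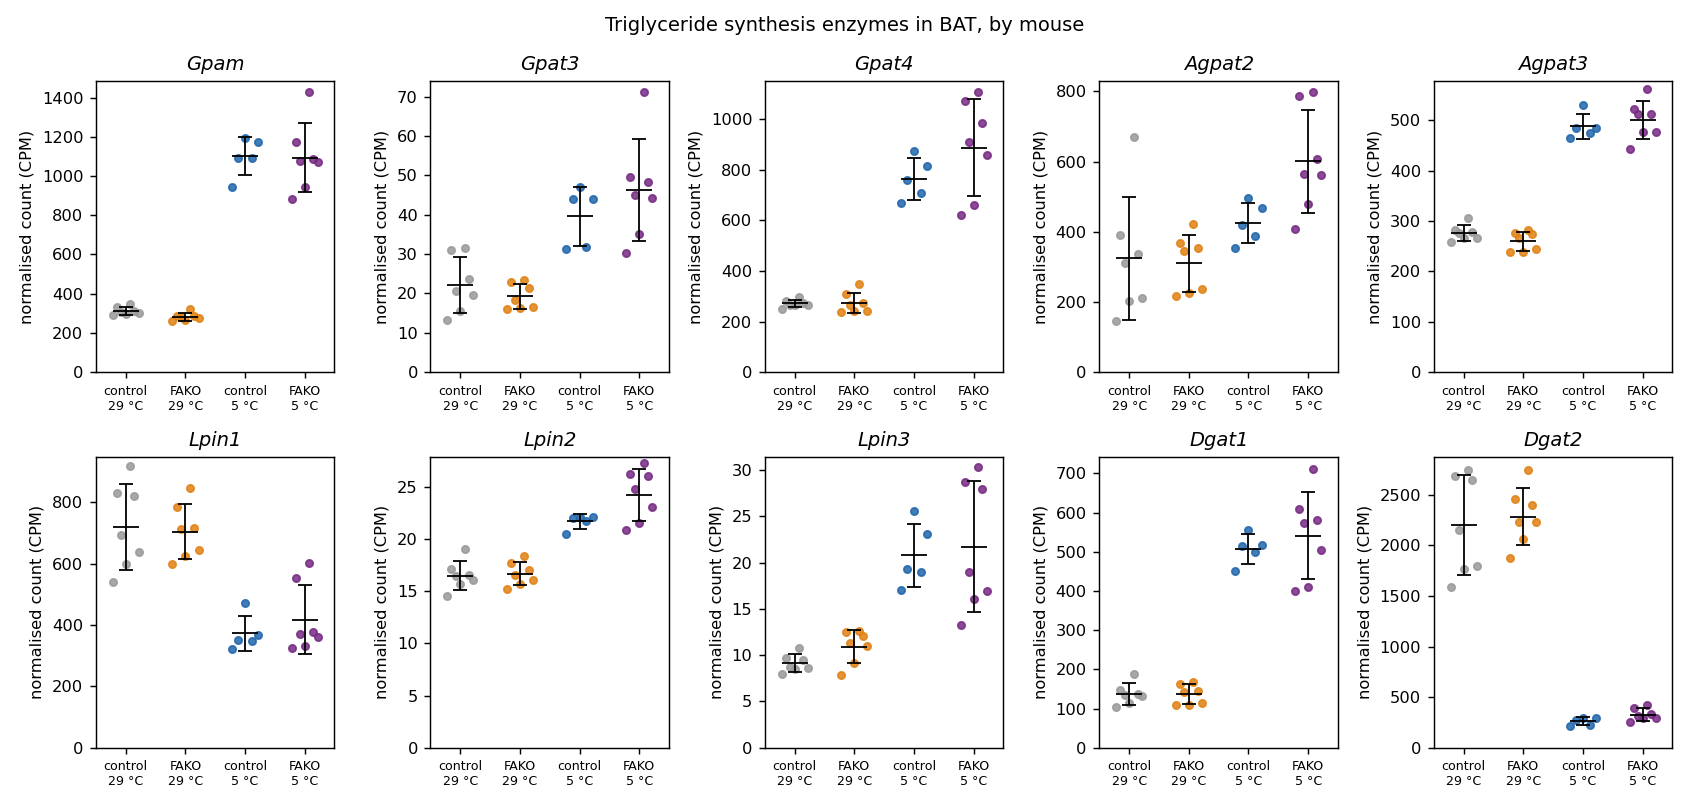
Normalised read counts (CPM, linear axis from 0) of the 10 genes, 1 point per mouse, in control and FAKO mice at 29 °C and 5 °C, with the mean as a line and SD as bars. Dgat2 dropped from 1590 or more at 29 °C to 423 or less at 5 °C, Dgat1 moved the other way, and the control and FAKO points overlap in every panel at the same temperature.

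Sequence upstream of the start was looked up, since members rose together while others fell. RefSeq promoter entries (GRCm38.p6) matched 7 of the 10 genes, with 11 start sites, and the entries of Gpat4, Dgat1 and Dgat2 were missing. The 250 bases upstream of a start of Gpam, which rose, and of Lpin1, which fell, are shown 5′ to 3′ on the strand of the gene, with the motif found in capitals.
Gpam, chr19:55127239-55127488: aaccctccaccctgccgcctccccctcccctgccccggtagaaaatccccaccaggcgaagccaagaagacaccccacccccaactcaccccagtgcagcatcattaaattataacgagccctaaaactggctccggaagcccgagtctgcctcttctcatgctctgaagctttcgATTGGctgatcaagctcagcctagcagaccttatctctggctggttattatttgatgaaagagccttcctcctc
Lpin1, chr12:16610967-16611216: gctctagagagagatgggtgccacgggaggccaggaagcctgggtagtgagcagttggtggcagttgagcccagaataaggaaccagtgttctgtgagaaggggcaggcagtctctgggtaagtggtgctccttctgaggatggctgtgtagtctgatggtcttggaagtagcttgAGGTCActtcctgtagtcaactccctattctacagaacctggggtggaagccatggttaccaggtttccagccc
In all, 6 motifs were searched on both strands. The capitals in Gpam are a CCAAT box (CCAAT, here on the opposite strand, 74 to 70 bases upstream), found in 2 of the 11 windows of the members and in 33.8% of the 32817 promoters of the table. Those in Lpin1 are a nuclear receptor core site (AGGTCA, on the strand of the gene, 74 to 69 bases upstream), found in 2 of the 11 windows, the other being that of another start of Gpam, and in 14.0% of promoters. The full cAMP response element (TGACGTCA) was in none of the 11 windows and in 1.55% of all promoters. Its core (TGACG, which the full element also holds) was in 3 of the 11 windows, those of Gpat3, Lpin2 and another start of Gpam, and in 17.7% of all. The GC box (GGGCGG) was in 6 of the 11 and 32.7% of all, and the E-box (CACGTG) in 1 and 6.02%. A match is a stretch of letters and was not tested as a bound site.

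The first step was examined in 3 genes. Gpam, a mitochondrial GPAT, lies on chr19:55067268-55127238, minus strand. Its CPM in control mice ran from 290 over a median of 308 to 348 at 29 °C and was 946, 1093, 1094, 1175 and 1195 in the 5 control mice after cold. In FAKO mice it ran from 261 over 280 to 319 at 29 °C and from 883 over 1078 to 1426 after cold. All 12 cold mice lay above all 14 thermoneutral mice. The log2 fold change with cold was 1.81 ± 0.09 in control mice (SE, adjusted p = 1.1e-15) and 1.96 ± 0.08 in FAKO mice (adjusted p = 6.5e-17, edgeR).

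Gpat4, a GPAT of the endoplasmic reticulum (chr8:23171265-23208346, minus strand), followed a like course. It ran from 250.5 to 298 CPM in control and from 236 to 349 CPM in FAKO mice at 29 °C, with medians of 267 and 265. After cold it was 668, 708, 758, 818 and 873 CPM in control mice, and 621 to 1108 CPM with a median of 911 in FAKO mice, again with no overlap. It rose by 1.495 ± 0.120 in control and 1.70 ± 0.11 in FAKO mice on the log2 scale (SE, adjusted p = 2.5e-11 and 5.0e-13, edgeR).

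Gpat3, the other GPAT of the endoplasmic reticulum (chr5:100845713-100899102, plus strand), was the lowest of the 3. Control mice had 13.2 to 31.6 CPM with a median of 20.6 at 29 °C and 31.4, 31.8, 44.0, 44.1 and 47.0 CPM after cold, so that the groups touched at the edge. FAKO mice had 16.1 to 23.3 CPM (median 18.4) at 29 °C and 30.4 to 71.1 CPM (median 44.9) after cold, with no overlap. The 71.1 CPM came from FAKO mouse 27, which also held the highest neutrophil marker sum, 44.1 CPM. This mouse was the highest of its group for Lpin2 and Lpin3 as well. The gene rose by 0.84 ± 0.19 in control and 1.26 ± 0.18 in FAKO mice on the log2 scale (SE, adjusted p = 0.00049 and 8.1e-07, edgeR). These cold responses did not differ past the threshold, with a difference of 0.42 and a 95% interval from -0.12 to 0.97. Gpat3 shares positions with 2 annotated transcripts of 1.41 and 2.54 mean CPM, and the strand setting of the counting is not given in the sources used here.

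For the next step, Agpat2, the acyltransferase whose loss is known from a form of inherited lipodystrophy, had the widest spread of the 10 genes at 29 °C relative to its mean (chr2:26593057-26604417, minus strand). Control mice at 29 °C ran from 147 over a median of 311 to 671 CPM, and those after cold had 355, 387, 420, 468 and 495 CPM. The highest value at 29 °C came from control mouse 7, whose mitochondrial share stood apart. This mouse also held the highest skeletal muscle and red blood cell marker sums of its group. In control mice the log2 fold change of 0.39 ± 0.26 (SE) did not pass the test, with a 95% interval from -0.14 to 0.92 (adjusted p = 0.19, edgeR). Without control mouse 7 it was 0.66 and passed (adjusted p = 0.0093, edgeR), so that all 10 genes then passed in control mice.

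In FAKO mice, Agpat2 ran from 217 over 345 to 421 CPM at 29 °C and from 409 over 565 to 797 CPM after cold, with 1 pair of mice overlapping. It rose there by 0.96 ± 0.24 on the log2 scale (SE, adjusted p = 0.00095, edgeR). The difference between the cold responses of the genotypes was 0.57 with a 95% interval from -0.16 to 1.29 and did not pass the threshold (adjusted p = 0.45, edgeR). Agpat2 shares positions with Egfl7, an endothelial gene on the opposite strand with a mean of 113 CPM. Without the strand setting of the counting, reads of this pair cannot be told apart.

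Agpat3, an acyltransferase of the same step (chr10:78269178-78352489, minus strand), had the smallest standard errors of the 10. It ran from 258 over 275 to 306 CPM in control and from 238 over 266 to 283 CPM in FAKO mice at 29 °C. After cold it was 465, 475, 485, 486 and 529 CPM in control and 443 to 562 CPM (median 512) in FAKO mice, with no overlap. It rose by 0.82 ± 0.06 in control and 0.95 ± 0.06 in FAKO mice on the log2 scale (SE, adjusted p = 4.3e-12 and 5.2e-14, edgeR). With library size alone the rise in FAKO mice was 0.63, where the median of all genes was -0.34.

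The lipins, which act as phosphatidate phosphatases and also enter the nucleus as coregulators, split in direction. Lpin1 (chr12:16535669-16610966, minus strand) ran from 539 over 695 to 918 CPM in control and from 600 over 714 to 848 CPM in FAKO mice at 29 °C. After cold it was 322, 349, 351, 368 and 472 CPM in control mice, all below the thermoneutral mice. In FAKO mice it ran from 325 over 372 to 602 CPM after cold, and the 602 of mouse 24 reached into the thermoneutral range. Mice 24 and 25, the highest of this group, also had its highest mitochondrial shares, 37.4% and 39.3%, and its lowest TMM factors, 0.769 and 0.759. Mouse 25 also held the highest skeletal muscle marker sum of the group, 8027 CPM. The part of these traits in the Lpin1 values was not tested. Lpin1 fell by 0.95 in control (SE 0.16) and by 0.75 in FAKO mice (SE 0.14) on the log2 scale (adjusted p = 6.3e-06 and 2.9e-05, edgeR).

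Lpin3 (chr2:160880670-160906002, plus strand) went up from a low level. It ran from 7.94 to 10.8 CPM in control and from 7.85 to 12.6 CPM in FAKO mice at 29 °C. After cold, control mice had 17.0, 19.0, 19.3, 23.0 and 25.5 CPM and FAKO mice 13.3 to 30.3 CPM (median 18.9), with no overlap. The rise was 1.19 ± 0.17 in control and 0.99 ± 0.16 in FAKO mice on the log2 scale (SE, adjusted p = 8.3e-07 and 3.3e-06, edgeR), or 0.65 in FAKO mice with library size alone.

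Lpin2 (chr17:71182560-71249817, plus strand) showed the smallest change of the 9 genes that passed in control mice. Its CPM was 14.5 to 19.1 in control and 15.3 to 18.4 in FAKO mice at 29 °C, and after cold 20.5, 21.7, 22.0, 22.1 and 22.2 in control and 20.9 to 27.3 in FAKO mice. The groups did not overlap, and the rise was 0.39 ± 0.07 in control and 0.54 ± 0.06 in FAKO mice on the log2 scale (SE, adjusted p = 2.1e-05 and 3.6e-08, edgeR). With library size alone it was 0.28 and 0.22.

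At the last step the 2 DGAT genes moved in opposite directions. Both enzymes make triglyceride from diacylglycerol and share no close sequence relation, and DGAT2 is known for its place at lipid droplets. Dgat2 (chr7:99153658-99182719, minus strand) ran from 1590 over 2154 to 2751 CPM in control and from 1871 over 2233 to 2743 CPM in FAKO mice at 29 °C. After cold it was 214, 229, 279, 295 and 297 CPM in control mice and ran from 251 over 310 to 423 CPM in FAKO mice. The lowest thermoneutral mouse was far above the highest cold mouse. Dgat2 fell by 3.07 in control (SE 0.16) and by 2.80 in FAKO mice (SE 0.14) on the log2 scale (adjusted p = 7.3e-15 and 1.8e-15, edgeR). In control mice only 0.821% and in FAKO mice 0.955% of all genes tested had a lower log2 fold change.

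Dgat1 (chr15:76502015-76511953, minus strand) ran from 103 over 135 to 188 CPM in control and from 109 over 143 to 169 CPM in FAKO mice at 29 °C. After cold it was 450, 500, 514, 518 and 555 CPM in control mice and ran from 400 over 573 to 712 CPM in FAKO mice. No cold mouse overlapped a thermoneutral one. The rise was 1.89 ± 0.14 in control and 1.99 ± 0.14 in FAKO mice on the log2 scale (SE, adjusted p = 9.1e-12 and 8.9e-13, edgeR), the largest rise among the 10 genes in each genotype.

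**Figure D2:**
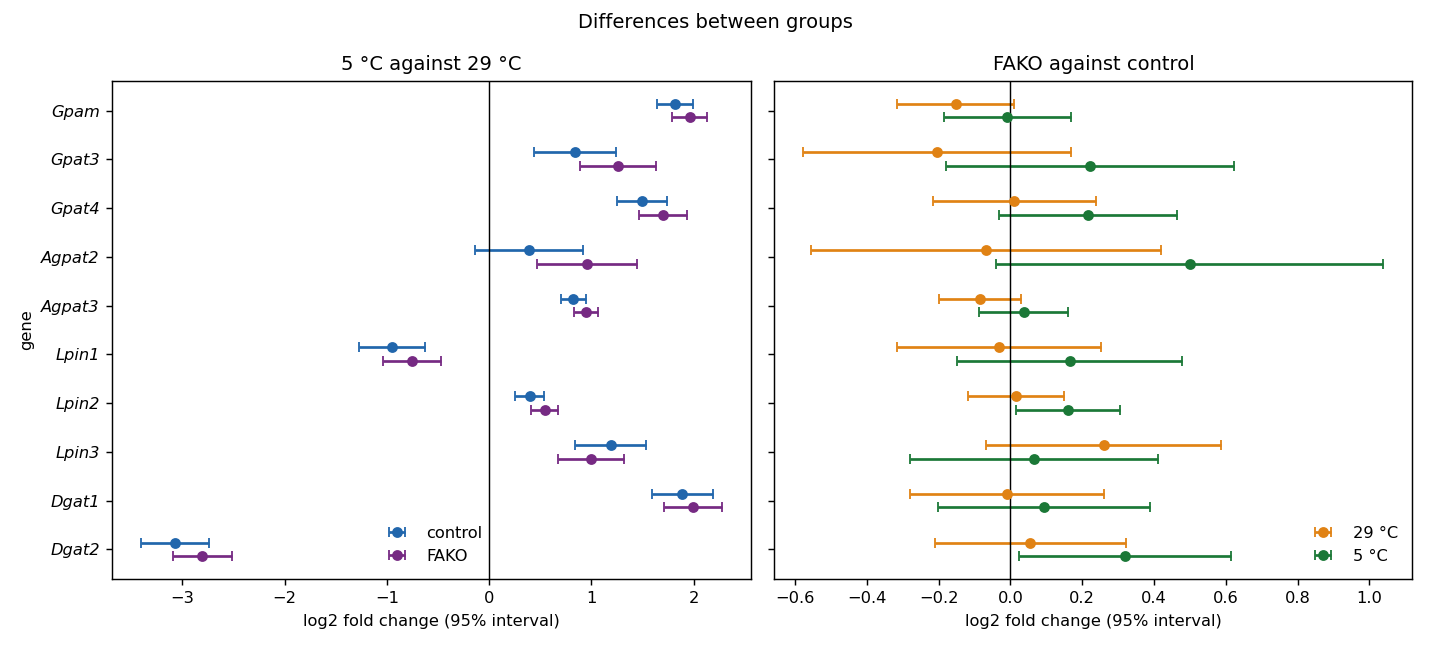
Log2 fold changes of the 10 genes with 95% intervals, for cold against thermoneutrality in control and FAKO mice (left) and for FAKO against control mice at 29 °C and 5 °C (right, with a narrower axis). The cold intervals exclude 0 for every gene but Agpat2 in control mice, and the FAKO intervals exclude 0 only for Lpin2 and Dgat2 at 5 °C, neither of which passed after adjustment.

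To compare genes with each other, CPM was divided by the length of the annotated exons in kb. At 29 °C in control mice, Dgat2 had the highest level per length, 713 ± 160.1 CPM per kb (SD, n = 7), and its mice did not overlap those of Agpat2, the next, at 152 ± 82.3. Agpat2 and Lpin1 (74.5 ± 14.4) overlapped in control mice, and Gpam, Dgat1, Gpat4 and Agpat3 followed at 47.0, 44.8, 40.6 and 35.4 CPM per kb with each overlapping its neighbour. Gpat3, Lpin3 and Lpin2 were lowest, at 6.33, 2.47 and 1.35 CPM per kb, and did not overlap each other. The order of Lpin3 and Lpin2 depended on the length used, since with the longest annotated transcript Lpin2 had the larger share of the lipin level in these mice, 2.26% against 2.00%. With that length the mean of Dgat1 also lay above that of Gpam. The longest transcript was 1888 of 3056 exonic bases for Dgat1 and 6172 of 6664 for Gpam. By exon length, FAKO mice gave a like order, with Dgat1 at 44.6 ahead of Gpam at 42.2 CPM per kb.

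After cold the order of the levels was another. In control mice Agpat2 was highest at 199 ± 26.9 CPM per kb (SD, n = 5), followed by Dgat1 at 166 ± 12.4 and Gpam at 165 ± 14.7, each overlapping its neighbour. With the longest transcript as the length, Dgat1 lay above Gpam without overlap in these mice. By exon length, Gpat4 followed at 115 and Dgat2 was the fifth at 85.2 ± 12.5 CPM per kb. In FAKO mice after cold, Agpat2 was highest at 282 ± 68.4 and Dgat2 again the fifth at 106 ± 19.9 CPM per kb (SD, n = 7).

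Summed over the members of a step among the 10 genes, the mRNA level per length was higher after cold for GPAT and lower for DGAT. Gpat2, Agpat1, Agpat4 and Agpat5, which are described with the other lists, are not in these sums or in the shares below. The GPAT sum was 93.9 ± 5.23 in control and 88.7 ± 9.61 in FAKO mice at 29 °C, and 291 ± 20.9 and 310.4 ± 45.8 CPM per kb after cold (SD). The DGAT sum was 758 ± 166 and 786 ± 96.6 CPM per kb at 29 °C and 251 ± 21.7 and 283 ± 51.9 CPM per kb after cold. For both steps the ranges over mice at the 2 temperatures did not overlap. The lipin sum was 78.3 ± 14.5 and 77.2 ± 9.56 CPM per kb at 29 °C against 46.0 ± 6.50 and 51.1 ± 12.9 after cold, apart in control mice and overlapping in FAKO mice. The AGPAT sum was 188 ± 81.2 and 179 ± 40.6 CPM per kb at 29 °C against 262 ± 27.8 and 346 ± 71.7 after cold, overlapping in control mice and apart in FAKO mice. No test was run on these sums or on the shares below.

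**Figure D3:**
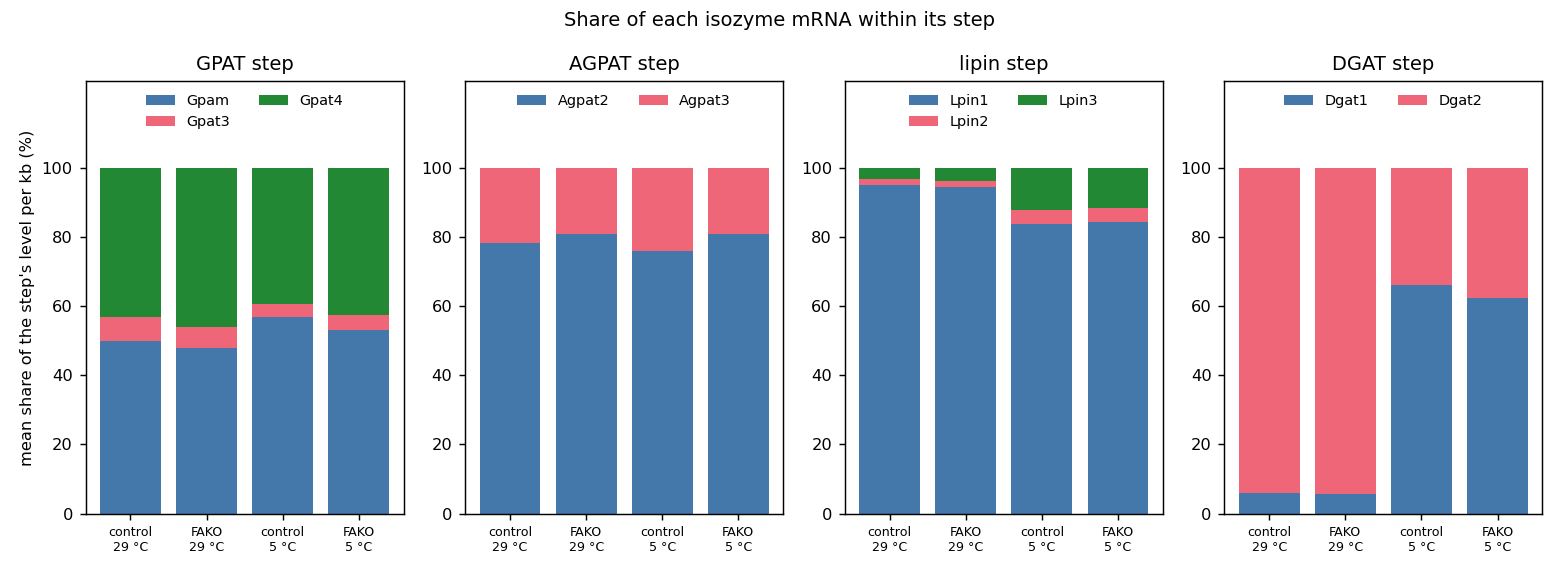
Mean share (%) of each mRNA in the summed level per kb of its step, in the 4 groups. Dgat2 made up 94.0% of the DGAT step in control mice at 29 °C and 33.8% after cold, while the AGPAT step kept Agpat2 between 75.9% and 80.9% in the 4 groups.

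Within the DGAT step, Dgat2 made up 94.0% ± 1.04 of the level per length in control and 94.3% ± 0.778 in FAKO mice at 29 °C (SD). After cold its share was 33.8% ± 2.87 in control and 37.7% ± 4.02 in FAKO mice. The Dgat2 to Dgat1 ratio per length ran from 11.7 to 19.9 in the 14 thermoneutral mice, and from 0.409 to 0.820 in the 12 cold mice, so that Dgat1 was the higher in every cold mouse. With the longest annotated transcript as the length, the Dgat2 share was 92.9% and 30.1% in control mice at 29 °C and 5 °C.

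The other steps shifted less. Lpin1 made up 94.98% ± 1.02 of the lipin level in control and 94.4% ± 0.670 in FAKO mice at 29 °C, and 83.8% ± 1.95 and 84.4% ± 3.42 after cold (SD), and the share of Lpin3 was 3.23% at 29 °C and 12.3% after cold in control mice. With the longest annotated transcript as the length, these Lpin3 shares were 2.00% and 7.85%. Gpam held 50.0% ± 2.08 and 47.8% ± 2.18 of the GPAT level at 29 °C and 56.8% ± 3.27 and 53.0% ± 4.30 after cold. With the longest transcript the order of Gpam and Gpat4 turned in FAKO mice at 29 °C, to 45.1% and 48.7%. Gpat4 held most of the rest by exon length, and Gpat3 between 3.87% and 6.68% in the 4 groups.

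**Figure D4:**
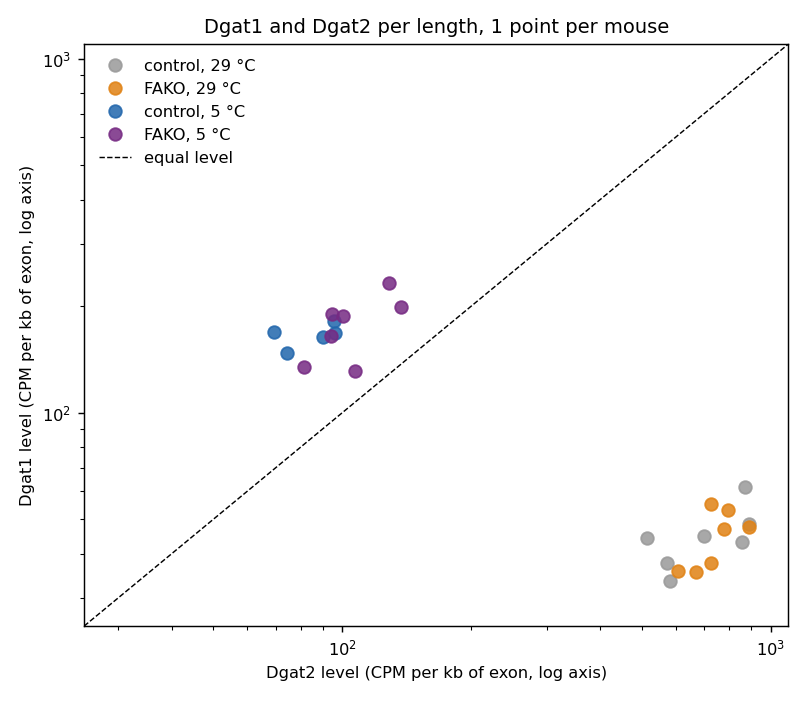
Dgat1 against Dgat2 level in CPM per kb of exon (both axes log), 1 point per mouse, with the line of equal level. The 14 thermoneutral mice lie below the line and the 12 cold mice above it, and control and FAKO points mix within each temperature.

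The next question was whether the label made a difference to these genes. At 29 °C 0 of the 10 genes passed the threshold, where 0.081% of all genes did, and the groups overlapped for all 10, where 0.249% of all genes did not overlap. No gene of the 10 had an unadjusted p below 0.05 there, beside 1322 of all 17286 genes (edgeR). The log2 fold changes ran from -0.20 for Gpat3 (95% interval -0.58 to 0.17) to 0.26 for Lpin3 (-0.07 to 0.59). The intervals were narrowest for Agpat3, from -0.20 to 0.03, and Lpin2, from -0.12 to 0.15, and widest for Agpat2, from -0.55 to 0.42.

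After cold, 0 of the 10 genes passed between the genotypes, where 0.139% of all genes did, and the groups overlapped for all 10, where 1.11% of all genes did not. Unadjusted p-values were below 0.05 for 2 of the 10 genes, beside 2323 of all 17286. They were Dgat2, at 0.32 ± 0.14 on the log2 scale (SE, adjusted p = 0.33, edgeR), and Lpin2, with 0.16 ± 0.07 (adjusted p = 0.32, edgeR). Agpat2 had the largest estimate, 0.50 with a 95% interval from -0.04 to 1.04 (adjusted p = 0.41, edgeR). Gpam was nearly level, at -0.01 with an interval from -0.19 to 0.17.

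The cold responses of the genotypes were compared directly as an interaction. This difference passed for 0 of the 10 genes, where 1.16% of all genes passed, and 0 of the 10 had an unadjusted p below 0.05, beside 2804 of all 17286 genes (edgeR). It was positive for 9 of the 10 and for 9797 of all 17286 genes, with a median of 0.17 beside 0.04 over all genes tested, and negative for Lpin3 at -0.19 (95% interval -0.67 to 0.28). With library size alone, where the median of all genes was -0.15, it was positive for Gpat3, Agpat2 and Dgat2 and negative for the other 7. For Dgat2 it was 0.26, with an interval from -0.13 to 0.66, and for Dgat1 0.10, from -0.30 to 0.50.

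**Figure D5:**
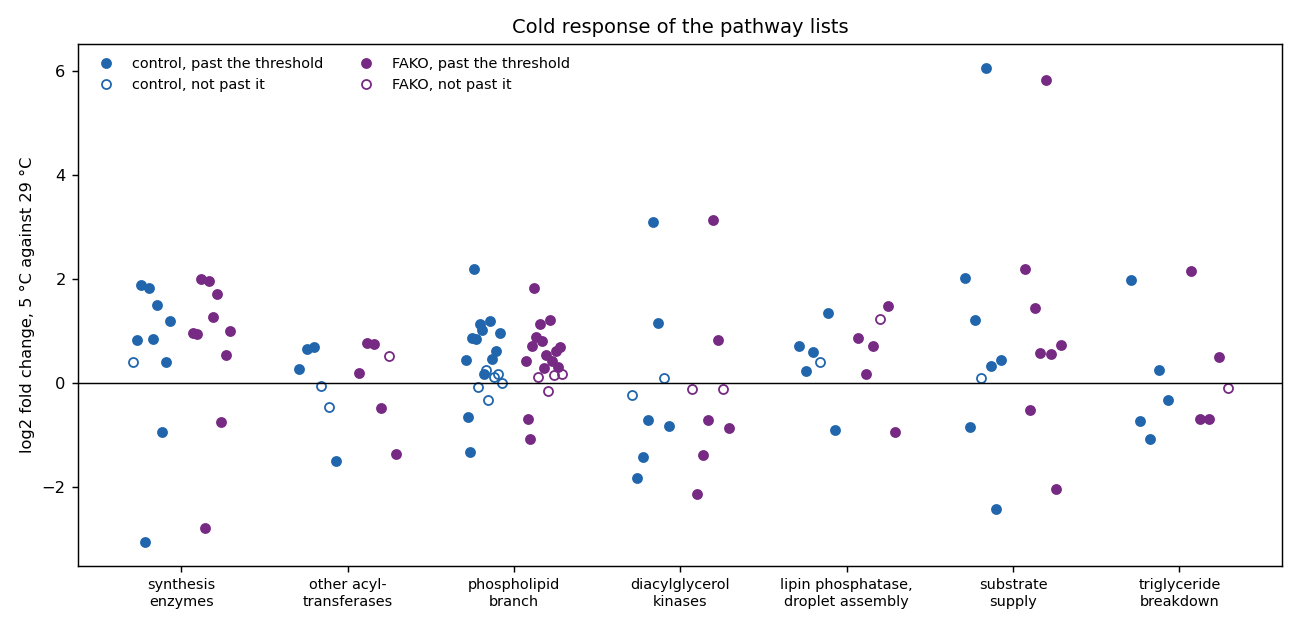
Log2 fold change of single genes with cold in control and FAKO mice, for the 10 synthesis enzymes and 6 lists of neighbouring enzymes, with filled points for genes past the threshold (edgeR, adjusted p below 0.05). Gk, at 6.06 and 5.82 in the substrate list, is the highest point, and every list holds genes that went up and genes that went down.

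Genes around the 4 steps were followed in 6 lists. Of 8 tested genes that supply the substrates, 5 rose and 2 fell in control mice and 6 rose and 2 fell in FAKO mice, with a median log2 fold change of 0.38 and 0.65. Gk, glycerol kinase, which makes glycerol 3-phosphate from glycerol, had 21.0 to 56.7 CPM in control mice at 29 °C and 2245 to 2506 CPM after cold, a rise of 6.06 ± 0.27 on the log2 scale (SE, edgeR). It rose by 5.82 ± 0.27 in FAKO mice. Gpd1l, related to the glycerol 3-phosphate dehydrogenase Gpd1, fell by 2.44 and 2.04. Acsl1, a long-chain acyl-CoA synthetase, rose by 2.02 ± 0.15 and 2.18 ± 0.14, and Acsl4 by 1.21 and 1.44.

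Among 6 other acyltransferases of the pathway, 3 rose and 1 fell in control mice, and 3 rose and 2 fell in FAKO mice. Agpat5 rose by 0.69 and 0.74, Agpat4 by 0.65 and 0.77 and Agpat1 by 0.27 and 0.19 on the log2 scale. Mogat2, a monoacylglycerol acyltransferase that feeds diacylglycerol without the lipin step, fell by 1.52 and 1.38 from a mean of only 1.81 and 1.71 CPM, and Gpat2 fell by 0.48 in FAKO mice and was at -0.06 in control mice without passing. The median of this list was 0.10 in control and 0.35 in FAKO mice.

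Of 19 tested genes that turn phosphatidic acid and diacylglycerol into phospholipids, 11 rose and 2 fell in control mice, and 13 rose and 2 fell in FAKO mice, with a median of 0.43 and 0.42. Chka, a choline kinase, rose by 2.19 ± 0.16 and 1.83 ± 0.15 on the log2 scale (SE, edgeR). Cds2, a CDP-diacylglycerol synthase that draws on phosphatidic acid, fell by 1.34 and 1.09. Pgs1 and Crls1, enzymes on the way to cardiolipin of the mitochondria, rose by 1.18 and 1.13 in control and by 1.20 and 1.14 in FAKO mice.

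Diacylglycerol kinases, which turn the product of the lipins back into phosphatidic acid, went both ways, with 2 up and 4 down of 8 tested in each genotype and medians of -0.47 and -0.42. Dgkg rose by 3.09 and 3.12 on the log2 scale, from a mean of 0.251 and 0.242 to 2.15 CPM in each genotype, and Dgkh by 1.16 and 0.83. Dgkb fell by 1.83 and 2.14, Dgkd by 1.43 and 1.39 and Dgkz by 0.83 and 0.87. Dgkg had only 2 to 8 counts in each thermoneutral mouse.

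Of 6 genes for the phosphatase that activates lipins and for droplet assembly, 4 rose and 1 fell in each genotype, with medians of 0.50 and 0.79. Fitm2, which is needed for triglyceride droplets to form, rose by 1.35 ± 0.07 and 1.47 ± 0.06 on the log2 scale (SE, edgeR). Bscl2, which encodes seipin, rose by 0.70 and 0.86, Ctdnep1, the lipin phosphatase, rose by 0.60 and 0.71, and Ldaf1, a partner of seipin, fell by 0.91 and 0.95.

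The 5 genes of triglyceride breakdown also split. Abhd5, the coactivator of adipose triglyceride lipase, rose by 1.98 ± 0.10 in control and 2.15 ± 0.10 in FAKO mice, while Lipe, hormone-sensitive lipase, fell by 1.08 and 0.70 on the log2 scale (SE, edgeR). G0s2, an inhibitor of the lipase, fell by 0.74 and 0.70. Pnpla2, the lipase itself, fell by 0.34 in control mice and was at -0.11 in FAKO mice without passing, and Mgll rose by 0.24 and 0.50. The list had 2 up and 3 down in control and 2 up and 2 down in FAKO mice, with medians of -0.34 and -0.11. None of the 52 tested genes of these 6 lists passed between FAKO and control mice at either temperature or in the interaction.

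The genes whose levels followed 4 of the members most closely were named by Pearson's r of log2 CPM over the 26 mice, among 14236 genes with a mean of at least 1 CPM. For Gpam they were Slc25a17 (r = 0.993), Adcy3 and Sgpl1. For Dgat1 they were Tmem120a (0.992), Ap1b1 and Atp6v0a2, and for Dgat2 Akt2 (0.991), Thnsl1 and Rad51d. For Lpin1 they were Dag1 (0.952), Gnpat and C1rl. These r values are descriptions across mice that share the 2 temperatures. Within a temperature they were lower, and unevenly so. For the 3 genes named with Gpam they were 0.512, 0.172 and 0.319 in the 14 thermoneutral mice and 0.724, 0.742 and 0.874 in the 12 cold mice. For those named with Dgat1 they were 0.933, 0.864 and 0.850 in thermoneutral and 0.762, 0.843 and 0.808 in cold mice. For those named with Dgat2 they were 0.905, 0.587 and 0.508 in thermoneutral and 0.609, 0.745 and 0.804 in cold mice. For those named with Lpin1 they were 0.755, 0.604 and 0.836 in thermoneutral and 0.833, 0.864 and 0.661 in cold mice.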

How the data were processed

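The study measured total RNA of BAT, prepared with ribosomal RNA removal and a stranded kit, from 26 mice grouped by their labels. Per the submitters' processing notes, STAR 2.5.2b, featureCounts 1.5.2 and build mm10 were used by the authors, who deposited raw counts per gene with no normalization. Symbols, positions and exon lengths came from GENCODE M21, which gave a symbol for 50462 of 50686 identifiers. Genes were kept with filterByExpr, and 1 model with a term for each of the 4 groups was fitted to all 26 mice in R 4.3.3 with edgeR 4.0.16 (quasi-likelihood test, legacy mode, TMM factors). P-values were adjusted by Benjamini-Hochberg over 17286 genes with a threshold of 0.05, in 5 comparisons. Log2 CPM had a prior count of 2. Mice were taken as replicates, and all 73 pairs within groups differed by more than sampling noise. The steps were tested on simulated data.

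All 10 members are named. From each other list at most 4 genes per comparison were to be named, those past the threshold with the largest change, and their values in the other genotype were added after they were seen. The members and lists were chosen with earlier results of these data known. Alternatives were DESeq2 1.42.0, library size, upper-quartile or RLE scaling, other filters, the revised quasi-likelihood method, robust empirical Bayes, only the groups compared, another gene length and leaving out each mouse.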

Additional observations from a re-analysis of the deposited data

Results flagged for a closer look

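Among 40 groups of mice, 1 for each of the 10 genes in each of the 4 groups, 1 held a mouse far from the others. Lpin2 in control mouse 16 after cold was the lowest of the 5, at 20.5 CPM against 21.7 to 22.2 CPM in the others, and the gap took up 0.735 of the range. Chance alone marks about 1 in 20 such groups. All 5 mice lay above every thermoneutral mouse.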

How the results depend on the processing

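Depth limits the low genes most, with 110 counts of Lpin3 and 171 of Gpat3 in the lowest library. In control mice the number of the 10 genes past the threshold in cold was 9 in all 9 other settings and 9 to 10 with 1 mouse left out. In FAKO mice it was 10, and for the other 3 comparisons 0, throughout. No paired analysis was possible because the replicate numbers run on over the groups and none is shared. The cause of the shifts below was not tested.

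Of all genes, 14 passed between genotypes at 29 °C, against 48 with DESeq2, 34 with library size alone and 9 without a filter, and 7 to 93 with 1 mouse left out, the highest without control mouse 7. After cold 24 passed, against 197 with DESeq2, 5 with library size alone, 15 without a filter, 45 with at least 10 counts in every mouse and 9 with only the groups compared, and 7 to 100 with 1 mouse left out, the highest without FAKO mouse 22. The difference of the cold responses passed for 200 genes, against 488 with DESeq2 and 27 without a filter, and 49 to 371 with 1 mouse left out, the lowest without FAKO mouse 8 and the highest without control mouse 7.

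Scaling by library size alone moved the median of all genes by cold to -0.14 in control and -0.34 in FAKO mice, and between genotypes at 29 °C to 0.13. With it, the log2 fold change between genotypes turned at 29 °C to 0.060 for Agpat3, 0.089 for Lpin1 and 0.10 for Dgat1, and after cold to -0.017 for Agpat3 and -0.016 for Lpin3. The difference of the cold responses turned to -0.031 for Gpam, -0.0012 for Gpat4, -0.076 for Agpat3, -0.0026 for Lpin1, -0.054 for Lpin2 and -0.057 for Dgat1. Dgat1 at 29 °C also turned to 0.018 with upper-quartile factors, 0.0028 without a filter and 0.0029 with only the groups compared. Gpam after cold turned to 0.0056 with DESeq2, 0.0056 with RLE factors and 0.0043 without a filter.

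With 1 mouse left out, the values between genotypes at 29 °C ran from -0.040 to 0.052 for Gpat4, -0.19 to 0.24 for Agpat2, -0.090 to 0.056 for Lpin1, -0.0094 to 0.053 for Lpin2, -0.069 to 0.10 for Dgat1 and -0.0096 to 0.13 for Dgat2, and after cold from -0.084 to 0.037 for Gpam and -0.035 to 0.15 for Lpin3. None of these passed the threshold in any setting. With the longest transcript as the length, 20 of 40 isozyme shares moved by more than 1 SD, and Dgat2 remained above Dgat1 at 29 °C and below it after cold in the group means. The split of calls also moved with the scaling. At 29 °C 10 rose and 4 fell with TMM, against 34 and 0 with library size and 13 and 1 with upper-quartile factors. After cold the split was 8 and 16, against 4 and 1 and 7 and 24, and for the difference 50 and 150, against 0 and 278 and 27 and 246.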
